A study of Zea mays with 12 samples.

Results

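The 9 genes described here encode the core enzymes and the transporter of starch synthesis in the maize kernel, namely sh2, bt2, bt1, wx1, ss1, su2, du1, ae1 and su1. They were picked by gene identifier, for their role in the pathway, from the 39423 gene models of the deposited table, with earlier results of these data known. RNA was sequenced from wild-type kernels of the W22 inbred grown in the field and cut while frozen into tissue pieces. Pieces were the basal endosperm transfer layer (BETL), the filial tissue that takes up sugar at the base of the endosperm, and the maternal transfer zone (MATZ), the maternal tissue that faces it. Both tissues were taken at 3 ages, namely 8, 14 and 20 days after pollination (DAP), and every one of the 6 groups holds 2 libraries. All 12 libraries share the same inbred and the wild-type genotype, and no mutant of any of the 9 genes was sampled. The labels do not say whether paired libraries come from different ears or plants, or how many kernels went into each, so p-values measure only the spread between these libraries, which may be technical.

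Starch in the cereal endosperm is built from ADP-glucose. ADP-glucose pyrophosphorylase, made of the large subunit encoded by sh2 and the small subunit encoded by bt2, forms ADP-glucose mostly in the cytosol of maize endosperm cells, and the envelope transporter encoded by bt1 carries it into the amyloplast. There the granule-bound starch synthase of wx1 makes amylose, and the soluble synthases of ss1, su2 and du1 lengthen the chains of amylopectin. The branching enzyme of ae1 places branch points, and the isoamylase-type debranching enzyme of su1 trims them. Mutants of these genes gave the classic shrunken, brittle, waxy, sugary, amylose-extender and dull kernels. The starchy endosperm is the main site of the pathway, while the transfer layer is known for sugar uptake and the maternal tissue facing it for sugar release.

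All 9 genes were measured and all 9 passed the filter of at least 1 FPKM (fragments per kilobase of transcript, scaled to the mapped fragments of the library) in at least 2 libraries. Of their 108 values, 15 were listed at 0, and 13 of these fell in the 8 DAP libraries. Depth is not given in the table. The smallest steps between low values put it near 93973 to 602035 fragments a library, an inference and not a count, with the BETL libraries of 20 DAP the deepest and MATZ 20 DAP replicate 2 the shallowest. Of genes at 10 FPKM or more in either library of a group, 11.9% were at 0 in the other library of BETL at 8 DAP, against 0.556% in BETL at 20 DAP and 8.37% to 10.8% in the MATZ groups. A value of 0 is therefore a value below detection at a low depth, and cannot be read as an absent transcript. The tissue labels held in the marker sums, though neither tissue was free of the markers of the other. The 16 BETL markers summed to 54105 to 97778 FPKM in the BETL libraries and to 2441 to 12049 FPKM in the MATZ libraries, and the 7 detected markers of maternal tissue, MADS-box genes and kn1, summed to 279 to 651 FPKM in BETL and 1777 to 3422 FPKM in MATZ. The maternal list held 2 more identifiers, both listed as zmm2, which were at 0 in every library. In MATZ the BETL marker sum climbed with age. It was 2441 and 3019 FPKM at 8 DAP, 7945 and 7165 FPKM at 14 DAP and 12049 and 10579 FPKM at 20 DAP. From 8 to 14 DAP 7 of the 16 rose in MATZ and 1 fell (limma adjusted p under 0.05). Of all tested genes 3.11% rose and 2.48% fell there. The part of filial RNA in the MATZ pieces was not tested.

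**Figure D1:**
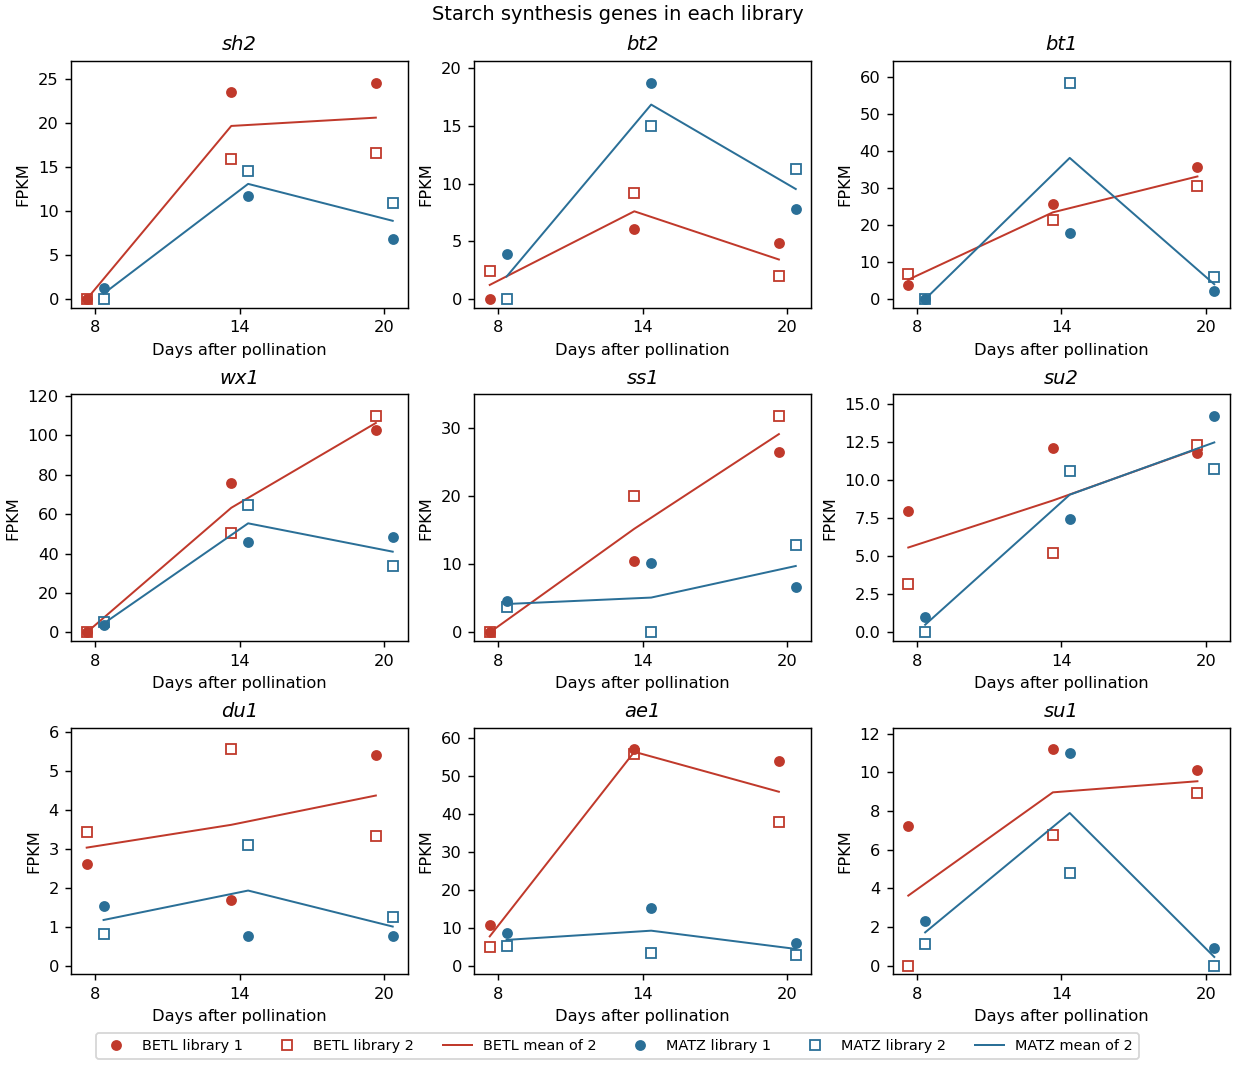
FPKM of each of the 9 starch genes (y axis, linear, its own range in each panel) by age in DAP (x axis), with 1 point per library and a line through the mean of the 2 libraries of BETL and of MATZ. Most genes are lowest at 8 DAP in both tissues, wx1 reaches 103 and 109.8 FPKM in BETL at 20 DAP, and bt1 in MATZ stands high at 14 DAP alone.

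The summed level of the 9 genes was low at 8 DAP and high at 14 DAP in both tissues. At 20 DAP the sum was still high in BETL but lower in MATZ. Their summed level was 32.3 and 20.6 FPKM in the BETL libraries of 8 DAP, 224 and 190.0 FPKM at 14 DAP and 276 and 253 FPKM at 20 DAP. In MATZ the sum was 26.7 and 16.1 FPKM at 8 DAP, 139 and 175 FPKM at 14 DAP and 94.0 and 89.0 FPKM at 20 DAP. The sums of the tissues overlapped at 8 DAP and did not at the later ages, when every BETL sum was above every MATZ sum. The 14 DAP separation of the sums leaned on ae1, at 57.1 and 55.7 FPKM in BETL against 15.2 and 3.29 FPKM in MATZ. At that age both BETL libraries of sh2 and ss1 were also above both MATZ libraries, bt2 had the reverse order, and the rest overlapped. None of these differences passed (limma log2 0.54, adjusted p = 0.694, for sh2, 2.21, adjusted p = 0.229, for ss1 and -1.07, adjusted p = 0.547, for bt2). The lower BETL value of ss1 was 10.5 FPKM, and its MATZ values were 10.2 and 0 FPKM. Some members did not follow the sum. From 8 to 14 DAP the log2(FPKM + 1) change was 0.06 for du1 in BETL and 0.13 for ae1 in MATZ. The MATZ means of ss1 and su2 were higher at 20 than at 14 DAP.

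Zein genes, whose storage proteins are made in the starchy endosperm, were also low at 8 DAP and high at 14 DAP in both tissues. The 25 zein genes summed to 62.7 and 71.7 FPKM in BETL at 8 DAP, to 3821 and 3919.7 FPKM at 14 DAP and to 1346 and 1369.7 FPKM at 20 DAP. In MATZ they summed to 42.5 and 73.8 FPKM at 8 DAP, to 9911 and 10267 FPKM at 14 DAP and to 780.5 and 987 FPKM at 20 DAP. Per 1000 FPKM of zein, the starch genes stood at 49.7 and 57.1 FPKM in BETL and at 13.5 and 17.6 FPKM in MATZ at 14 DAP, and at 188 and 201 FPKM in BETL against 90.2 and 120.5 FPKM in MATZ at 20 DAP. The ratio of starch to zein transcripts was thus higher in BETL than in MATZ at 14 and 20 DAP. At 8 DAP it overlapped between the tissues, at 450 and 329 FPKM in BETL and 630 and 218 FPKM in MATZ. No constant ratio held across the libraries. Genes of the aleurone and embryo, a list of 4, summed to 26.9 and 7.22 FPKM in BETL at 8 DAP. Their BETL sums were 485 and 503 FPKM at 14 DAP and 215 and 228 FPKM at 20 DAP. No MATZ library was above 58.7 FPKM. Most of the BETL sum at 14 DAP came from ole1, at 440 and 452 FPKM. Of the others, glb2 was at 0 in both tissues at 14 DAP. At 20 DAP glb2 was at 7.61 and 7.16 FPKM in BETL and at 2.50 and 10.1 FPKM in MATZ. The part of starchy endosperm RNA in the starch gene levels of these pieces was not tested. In these bulk samples, fewer cells of a type and less RNA per cell cannot be told apart.

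**Figure D2:**
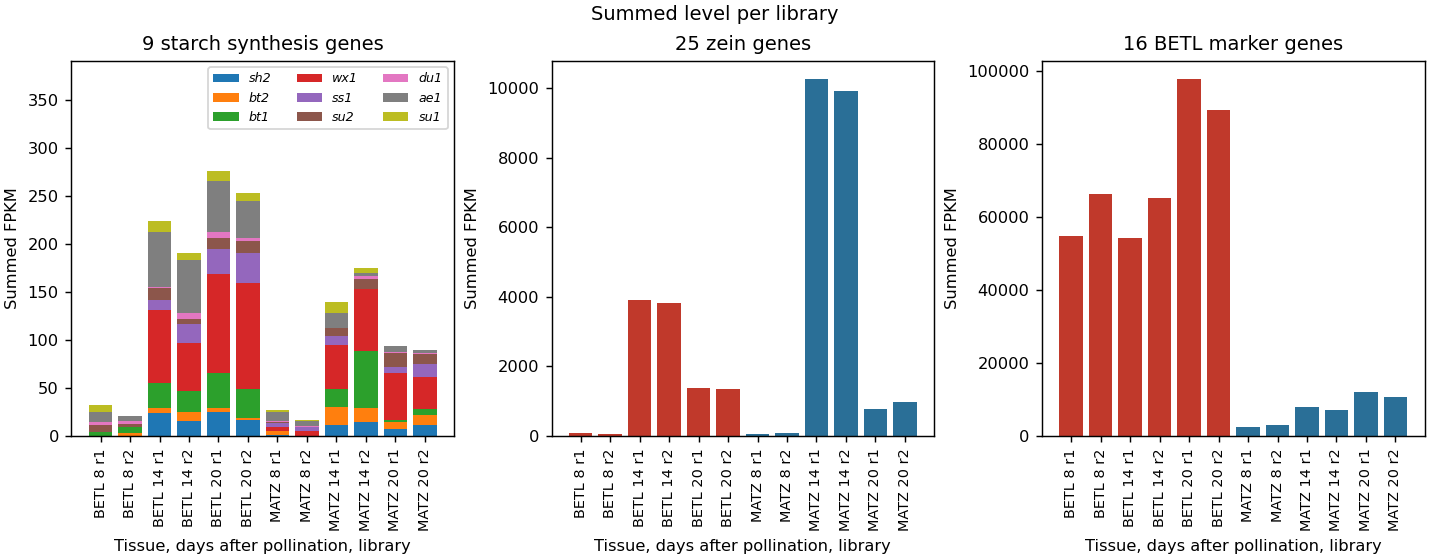
Summed FPKM per library (y axis, linear, its own range in each panel) for the 9 starch genes, stacked by gene, for the 25 zein genes and for the 16 BETL markers, with the 12 libraries on the x axis ordered by tissue and age. The starch sum is highest in BETL at 20 DAP, the zein sum in MATZ at 14 DAP and the BETL marker sum in BETL at 20 DAP.

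The gene for the large subunit, sh2 (GRMZM2G429899, minus strand of chromosome 3 from 216414684 to 216424048 in the deposited table, whose genome build is not given in the sources used here), rose between 8 and 14 DAP in both tissues. It was at 0 FPKM in both BETL libraries of 8 DAP, at 23.4 and 15.8 FPKM at 14 DAP and at 24.5 and 16.6 FPKM at 20 DAP. In MATZ it was at 1.24 and 0 FPKM at 8 DAP, at 11.7 and 14.5 FPKM at 14 DAP and at 6.85 and 10.9 FPKM at 20 DAP. No library of 8 DAP came near any later library of the same tissue, and at 14 and 20 DAP both BETL libraries were above both MATZ libraries. The rise from 8 to 14 DAP was 4.34 ± 0.67 (SE) in BETL on the log2(FPKM + 1) scale (limma adjusted p = 0.00438) and 3.23 ± 0.67 in MATZ (adjusted p = 0.0224). The BETL rise kept its call whichever library was left out (adjusted p from 0.00407 to 0.0331), and so did the 8 to 20 DAP rise there, 4.41 ± 0.67 (adjusted p = 0.00334). The MATZ rise to 14 DAP passed in 9 of the 12 omissions (adjusted p from 0.0156 to 0.107) and was lost without MATZ 8 DAP replicate 2 or either MATZ 14 DAP library. In MATZ the 8 to 20 DAP rise of 2.69 ± 0.67 was borderline (adjusted p = 0.0401). It passed in 6 of the 12 omissions (adjusted p from 0.0249 to 0.17), and was lost without BETL 14 DAP replicate 1, either BETL 20 DAP library, MATZ 8 DAP replicate 2 or either MATZ 20 DAP library. That call held in 3 of the 9 other settings of the processing (limma adjusted p from 0.0236 to 0.259). At 20 DAP sh2 stood at 20.6 ± 5.60 FPKM (SD, n = 2) in BETL and 8.89 ± 2.88 in MATZ, 2.32-fold higher, which did not pass the test (log2 difference 1.13, 95% interval -0.36 to 2.63, adjusted p = 0.355).

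The gene for the small subunit, bt2 (GRMZM2G068506, chromosome 4 from 58954361 to 58960100, minus strand), had its higher levels in the other tissue. In BETL it stood at 0 and 2.46 FPKM at 8 DAP, at 6.04 and 9.17 FPKM at 14 DAP and at 4.87 and 1.99 FPKM at 20 DAP. In MATZ it stood at 3.91 and 0 FPKM at 8 DAP, at 18.7 and 14.9 FPKM at 14 DAP and at 7.84 and 11.2 FPKM at 20 DAP. Both MATZ libraries were above both BETL libraries at 14 and at 20 DAP, the opposite order to sh2. The MATZ mean was 2.21-fold the BETL mean at 14 DAP and 2.78-fold at 20 DAP, but neither difference passed the test (log2 -1.07 ± 0.94, adjusted p = 0.547, and -1.31 ± 0.94, adjusted p = 0.463). No age comparison of bt2 passed in either tissue. The closest was the 8 to 14 DAP difference in MATZ, 3.0 ± 0.94 (adjusted p = 0.104), which would pass with a pseudocount of 5 (adjusted p = 0.0476) or without MATZ 8 DAP replicate 1 (adjusted p = 0.0482).

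Taken per library, the FPKM ratio of sh2 to bt2 was 3.88 and 1.73 in BETL at 14 DAP and 5.04 and 8.35 in BETL at 20 DAP. The MATZ ratios were 0.623 and 0.97 at 14 DAP, then 0.874 and 0.973 at 20 DAP. The sh2 level per length therefore exceeded that of bt2 in each of these 4 BETL libraries and in none of the 4 MATZ libraries. This ratio was examined after the values were seen and carries no test. Another gene for a subunit of this enzyme, listed as Agp2 (GRMZM2G106213), was at 4.55 and 8.28 FPKM in BETL and at 17.8 and 8.04 FPKM in MATZ at 14 DAP. At 20 DAP it was at 10.9 and 9.40 FPKM in BETL and at 23.9 and 18.4 FPKM in MATZ. A different gene listed as AGP2 (GRMZM2G027955), named after its values were seen, had the reverse order, at 22.9 and 14.5 FPKM in BETL and 8.43 and 6.90 FPKM in MATZ at 14 DAP, and at 15.2 and 10.2 FPKM against 4.17 and 0 FPKM at 20 DAP. Neither gene's tissue difference passed at 14 or 20 DAP. AGPLS3 (GRMZM2G144002), chosen after its values were seen, ranged from 0.546 to 7.60 FPKM over all 12 libraries.

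The transporter gene bt1 (GRMZM2G144081, chromosome 5 from 112928080 to 112930204, minus strand) had its highest mean at 20 DAP in BETL and at 14 DAP in MATZ. In BETL it stood at 3.86 and 6.69 FPKM at 8 DAP, at 25.7 and 21.3 FPKM at 14 DAP and at 35.9 and 30.6 FPKM at 20 DAP. The MATZ libraries gave 0 and 0 FPKM at 8 DAP, then stood at 17.9 and 58.6 FPKM at 14 DAP and at 2.19 and 5.88 FPKM at 20 DAP. The BETL values climbed with age with no overlap between ages, while in MATZ both libraries of 14 DAP were above both of 20 DAP, and the 2 libraries of 14 DAP differed more than any other pair of this gene. In MATZ bt1 rose between 8 and 14 DAP by 5.07 ± 0.69 on the log2 scale (adjusted p = 0.00327, and 0.00444 to 0.0297 with any library left out). The later difference in MATZ, from 38.2 ± 28.8 to 4.03 ± 2.61 FPKM, or 9.47-fold, missed the threshold (-2.84 ± 0.69, adjusted p = 0.0778).

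At 20 DAP bt1 was 8.23-fold higher in BETL than in MATZ (33.2 ± 3.74 against 4.03 ± 2.61 FPKM, log2 difference 2.86 ± 0.69, adjusted p = 0.0264). That call held in 9 of 12 omissions (adjusted p from 0.0182 to 0.154), and was lost without either BETL 20 DAP library or without MATZ 20 DAP replicate 1. The rise in BETL from 8 to 20 DAP was 6.29-fold (2.48 ± 0.69, adjusted p = 0.0454, from 0.0321 to 0.211 over the omissions). It was lost without any of the 6 BETL libraries or either MATZ library of 8 DAP. The same 8 omissions ended the call at 8 DAP, where bt1 was listed at 0 in MATZ and was 2.61 ± 0.69 higher in BETL (adjusted p = 0.0485, from 0.0325 to 0.154). By the inferred depth, at most 1.01 and 3.17 fragments lay behind the BETL values of 8 DAP, and at most 1.19 and 1.17 behind the MATZ values of 20 DAP.

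The granule-bound synthase gene wx1 (GRMZM2G024993, chromosome 9 from 23256308 to 23260236, minus strand) had the highest mean of the 9 at 14 and 20 DAP in both tissues. It was at 0 FPKM in both BETL libraries of 8 DAP, at 76.0 and 50.5 FPKM at 14 DAP and at 103 and 109.8 FPKM at 20 DAP. In MATZ it was at 3.58 and 5.40 FPKM at 8 DAP, at 45.9 and 64.8 FPKM at 14 DAP and at 48.5 and 33.5 FPKM at 20 DAP. The tissues overlapped at 14 DAP, while at 20 DAP both BETL libraries were above both MATZ libraries, and at 8 DAP the order was the reverse. The BETL rise was 5.98 ± 0.43 from 8 to 14 DAP (adjusted p = 7.47e-05) and 6.74 ± 0.43 from 8 to 20 DAP (adjusted p = 1.82e-05). Because the 8 DAP group is listed at 0, these sizes depend on the pseudocount: the 8 to 20 DAP value was 10.1 with a pseudocount of 0.1 and 4.48 with 5. In MATZ the mean rose 12.3-fold from 8 to 14 DAP (3.36 ± 0.43, adjusted p = 0.00234) and stood 9.13-fold above 8 DAP at 20 DAP (2.93 ± 0.43, adjusted p = 0.0039). All 4 of these rises kept their calls in every single-library omission.

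Between tissues, wx1 was 2.44 ± 0.43 lower in BETL than in MATZ at 8 DAP (adjusted p = 0.00854, from 0.0111 to 0.0334 over the omissions), a call lost with a pseudocount of 5. At most 4.15 and 3.44 fragments lay behind the MATZ values of that age. At 20 DAP the mean was 2.59-fold higher in BETL (106 ± 5.01 against 41.0 ± 10.6 FPKM) and just missed the threshold (1.38 ± 0.43, adjusted p = 0.0741). That difference passed with a pseudocount of 5, with median-of-ratios scaling, with quantile normalization and without MATZ 8 DAP replicate 1, the adjusted p ranging from 0.0208 to 0.139 over the settings and from 0.0493 to 0.279 over the omissions. The change from 8 to 20 DAP differed between the tissues, larger in BETL by 3.81 ± 0.61 (adjusted p = 0.0139). It was lost only without MATZ 20 DAP replicate 2 (adjusted p = 0.0573), and its size was 6.89 with a pseudocount of 0.1 and 2.21 with 5. For the 8 to 14 DAP change the difference was 2.62 ± 0.61 (adjusted p = 0.0707). The second granule-bound gene, GBSSIIa (GRMZM2G008263), also picked after its values were seen, was at 8.12 and 6.48 FPKM in BETL at 14 DAP and at 0 in both MATZ libraries of that age.

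Among the soluble synthases, ss1 (GRMZM2G129451, chromosome 9 from 17633649 to 17644407, plus strand), whose enzyme extends the shortest chains, rose in BETL. It was at 0 FPKM in both BETL libraries of 8 DAP, at 10.5 and 20.0 FPKM at 14 DAP and at 26.4 and 31.8 FPKM at 20 DAP. The MATZ values were 4.67 and 3.67 FPKM at 8 DAP, 10.2 and 0 FPKM at 14 DAP and 6.69 and 12.8 FPKM at 20 DAP. The BETL ages did not overlap one another, whereas the MATZ libraries of 14 DAP lay on either side of those of 8 DAP. The BETL rise was 3.95 ± 1.02 to 14 DAP (adjusted p = 0.0351, from 0.0076 to 0.145 over the omissions) and 4.91 ± 1.02 to 20 DAP (adjusted p = 0.0151, from 0.00247 to 0.116). The first was lost without any BETL library or either MATZ library of 8 DAP, and the second without BETL 8 DAP replicate 1 or either BETL library of 20 DAP. The MATZ changes did not pass, and the differences between the tissues in these changes did not pass either (4.57 ± 1.44, adjusted p = 0.15, to 14 DAP and 3.90 ± 1.44, adjusted p = 0.205, to 20 DAP). At 20 DAP ss1 was 2.99-fold higher in BETL (29.1 ± 3.76 against 9.75 ± 4.32 FPKM), which was not called (1.54 ± 1.02, adjusted p = 0.417).

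The IIa-type synthase gene su2 (GRMZM2G348551, chromosome 6 from 113233723 to 113238779, plus strand), whose enzyme makes chains of intermediate length, was called in MATZ. There it was at 1.01 and 0 FPKM at 8 DAP, at 7.46 and 10.6 FPKM at 14 DAP and at 14.2 and 10.7 FPKM at 20 DAP. In BETL it was at 7.94 and 3.19 FPKM at 8 DAP, at 12.1 and 5.22 FPKM at 14 DAP and at 11.8 and 12.3 FPKM at 20 DAP. BETL was above MATZ at 8 DAP alone, while the tissues shared a range at 20 DAP (12.03 ± 0.33 and 12.5 ± 2.45 FPKM, log2 difference -0.03, 95% interval -1.61 to 1.54). The MATZ rise was 3.24 ± 0.70 from 8 to 20 DAP (adjusted p = 0.024, from 0.0223 to 0.0976), lost without MATZ 8 DAP replicate 2 or either MATZ library of 20 DAP. To 14 DAP it was 2.81 ± 0.70 (adjusted p = 0.0488, from 0.0431 to 0.185 over the omissions), and 8 of the 12 omissions and 7 of the 9 other settings ended that call. The libraries whose omission kept it were BETL 8 DAP replicates 1 and 2, BETL 14 DAP replicate 2 and MATZ 8 DAP replicate 1.

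The III-type synthase gene du1 (GRMZM2G141399, chromosome 10 from 59506710 to 59518288, plus strand), whose enzyme makes long chains, stayed low throughout, from 0.756 to 5.56 FPKM, and was never at 0. It was at 2.62 and 3.45, 1.68 and 5.56, and 5.41 and 3.34 FPKM in BETL at 8, 14 and 20 DAP, and at 1.54 and 0.807, 0.756 and 3.11, and 0.772 and 1.24 FPKM in MATZ. Both BETL libraries were above both MATZ libraries at 8 and 20 DAP. No comparison of du1 passed, including the 4.35-fold difference of means at 20 DAP (log2 1.40, 95% interval -0.33 to 3.14, adjusted p = 0.321).

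The branching enzyme gene ae1 (GRMZM2G032628, chromosome 5 from 168451664 to 168468750, minus strand) had the largest tissue difference of the 9 on the log2 scale at 14 and at 20 DAP. In BETL it stood at 10.6 and 4.83 FPKM at 8 DAP, at 57.1 and 55.7 FPKM at 14 DAP and at 53.9 and 37.8 FPKM at 20 DAP. In MATZ it stood at 8.49 and 5.10 FPKM at 8 DAP, at 15.2 and 3.29 FPKM at 14 DAP and at 6.10 and 2.74 FPKM at 20 DAP. The tissues overlapped at 8 DAP and were far apart afterwards, since every MATZ library stayed at or below 15.2 FPKM. The mean was 6.11-fold higher in BETL at 14 DAP (56.4 ± 0.96 against 9.23 ± 8.40 FPKM, log2 difference 2.79 ± 0.70, adjusted p = 0.0367) and 10.4-fold higher at 20 DAP (3.16 ± 0.70, adjusted p = 0.0191). Within BETL ae1 rose 7.30-fold from 8 to 14 DAP (2.80 ± 0.70, adjusted p = 0.0322) and was 5.94-fold above 8 DAP at 20 DAP (2.49 ± 0.70, adjusted p = 0.0486). In MATZ the same changes were 0.13 ± 0.70 and -0.56 ± 0.70, neither called.

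The 4 calls of ae1 moved with single libraries. The 14 DAP tissue difference (adjusted p from 0.0208 to 0.178 over the omissions) was lost without either library of BETL 14 DAP, BETL 20 DAP or MATZ 8 DAP, or without MATZ 14 DAP replicate 2. The 20 DAP difference (from 0.00993 to 0.143) was lost without either BETL library of that age or MATZ 20 DAP replicate 2. The BETL rise to 14 DAP (from 0.0177 to 0.126) was lost without any BETL library or either MATZ library of 8 DAP, and the difference between 8 and 20 DAP (from 0.0263 to 0.246) was lost in 10 of the 12 omissions, all but those of the MATZ libraries of 14 DAP. The change in BETL exceeded that in MATZ by 2.67 ± 0.99 to 14 DAP and 3.05 ± 0.99 to 20 DAP, neither of which passed (adjusted p = 0.213 and 0.155).

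For the debranching gene su1 (GRMZM2G138060, chromosome 4 from 41369510 to 41378299, plus strand) the BETL libraries gave 7.25 and 0 FPKM at 8 DAP, 11.2 and 6.74 FPKM at 14 DAP and 10.1 and 8.95 FPKM at 20 DAP. The MATZ libraries gave 2.31 and 1.14 FPKM at 8 DAP, 11.03 and 4.77 FPKM at 14 DAP and 0.902 and 0 FPKM at 20 DAP. The tissues overlapped at 8 and 14 DAP and did not at 20 DAP, where MATZ held its lowest values and BETL kept its 14 DAP range. By the inferred depth, at most 2.03 fragments lay behind the higher of these MATZ values. That 20 DAP difference, 2.93 ± 1.01, did not pass (adjusted p = 0.103, from 0.0363 to 0.334 over the omissions), although it would without either BETL library of 8 DAP. The MATZ difference from 14 to 20 DAP, -2.59 ± 1.01, was not called either (adjusted p = 0.292).

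**Figure D3:**
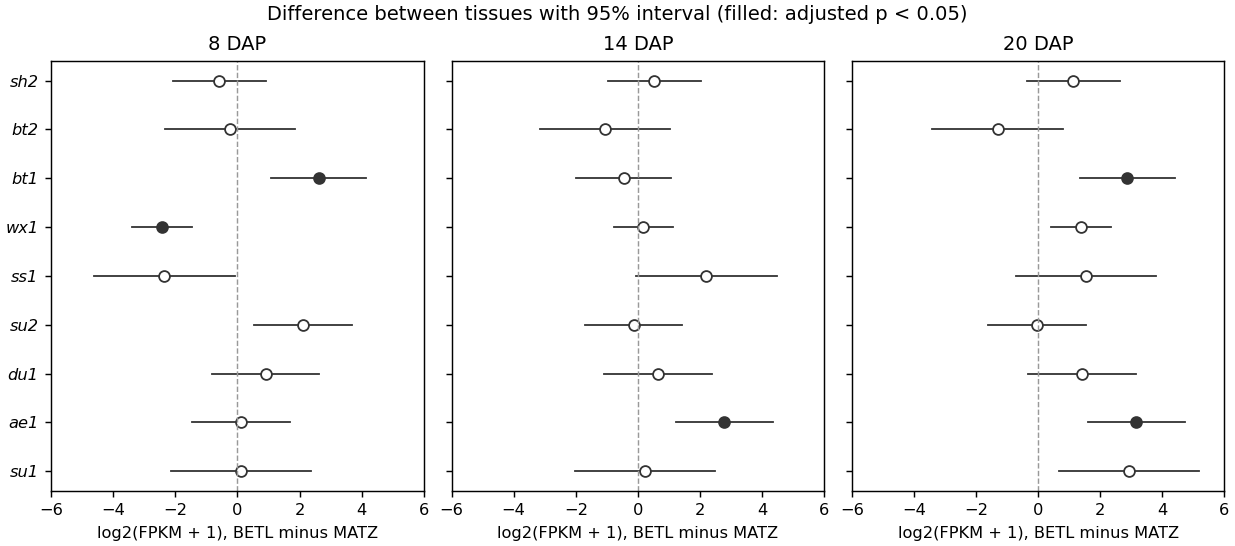
Difference between BETL and MATZ in log2(FPKM + 1) (x axis, BETL minus MATZ) for the 9 starch genes (y axis) at 8, 14 and 20 DAP, with the 95% interval of the limma fit as a bar. The values spread around 0 at 8 DAP, ae1 (2.79) and ss1 (2.21) are the highest at 14 DAP with overlapping intervals, bt1, su1 and ae1 lie at 2.86, 2.93 and 3.16 at 20 DAP, and bt2 lies below 0 at every age.

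The comparison of the tissues asks where each gene is more expressed at a given age. A gene is called here when its limma p, adjusted by Benjamini-Hochberg over 24213 tested genes, is under 0.05. At 8 DAP 1 of the 9 members was higher in BETL (bt1) and 1 was higher in MATZ (wx1), where 7.46% of all tested genes were called, 2.16% higher in BETL and 5.31% higher in MATZ. The median difference was 0.11 over the members and -0.40 over all tested genes. At 14 DAP 1 member was called, ae1, higher in BETL, against 9% of all genes (4.63% higher in BETL and 4.38% higher in MATZ), so its count was close to that background. For 20 DAP 2 members were called higher in BETL, bt1 and ae1, and 0 higher in MATZ, against 10.6% of all genes (4.23% higher in BETL and 6.38% higher in MATZ). The members' median was then 1.40 and that of all genes 0.00, with 7 of the 9 members positive and bt2 and su2 negative. The share of all called genes that was higher in BETL moved with the scaling at 8 DAP (28.9% as deposited, 45.9% with quantile normalization) and at 20 DAP (39.9%, and 53.2% with median-of-ratios scaling).

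The comparison of ages asks how the level of each gene differs between ages within a tissue. From 8 to 14 DAP in BETL 4 of the 9 rose (sh2, wx1, ss1 and ae1) and 0 fell, where 11.6% of all genes were called, 9.06% rising and 2.58% falling. The values of all 9 members were positive, with a median of 2.18 against 0.75 over all genes. From 8 to 20 DAP in BETL 5 rose (the same 4 and bt1) and 0 fell, where 11.5% of all genes were called (8.01% rose and 3.45% fell), and the medians were 2.48 and 0.79. Among all called genes of the 8 to 14 DAP step 77.9% rose as deposited, 57.2% with median-of-ratios scaling and 47.3% with quantile normalization, and from 8 to 20 DAP 69.9%, 56.5% and 45.2% rose. The all-gene median of the 8 to 14 DAP step moved with the scaling, from 0.75 as deposited to 0.44 with median-of-ratios scaling and -0.03 with quantile normalization. After either rescaling sh2 and wx1 still rose in BETL (sh2 by 4.19 and 3.77, wx1 by 5.82 and 5.67). The call of ae1 was lost under both (adjusted p = 0.0625 and 0.0695, from 0.013 to 0.124 over all settings), and that of ss1 was lost with quantile normalization (adjusted p = 0.0537, from 0.0266 to 0.128 over all settings).

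In MATZ 4 of the 9 rose from 8 to 14 DAP (sh2, bt1, wx1 and su2) and 0 fell, where 5.58% of all genes were called, 3.11% rising and 2.48% falling. The median was 2.81 over the members and 0.14 over all genes. From 8 to 20 DAP 3 rose (sh2, wx1 and su2) and 0 fell, against 7.26% of all genes (4.39% rose and 2.88% fell), with medians of 2.23 and 0.33. Among all called genes the rising share from 8 to 14 DAP was 55.6% as deposited, 36.3% with median-of-ratios scaling and 44.1% with quantile normalization, and from 8 to 20 DAP 60.4%, 36.8% and 41.2%. Both 8 DAP groups serve as the starting point of 2 comparisons each, so the 14 and 20 DAP counts within a tissue share their libraries.

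From 14 to 20 DAP no member was called by limma in either tissue. In BETL 0 of 9 passed, and 0.801% of all genes were called (0.277% rose and 0.525% fell). The unadjusted p was under 0.05 for 0 of 9 members and for 2088 of the 24213 tested genes there. In MATZ 0 of 9 passed, and 1.47% of all genes were called (0.772% rose and 0.698% fell). That rising share of 52.5% was 41.3% with quantile normalization. The unadjusted p in MATZ was under 0.05 for 2 of 9 members (bt1 and su1) and for 3175 of the 24213 tested genes. The members' medians were 0.33 in BETL and -0.53 in MATZ, with 7 of 9 positive in BETL and 7 of 9 negative in MATZ, against medians of 0.00 over all genes in both tissues.

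The interaction of tissue and age asks whether a change differed between BETL and MATZ. For the 8 to 14 DAP change 0 of 9 members passed, where 1.27% of all genes were called. The BETL change minus the MATZ change was positive for 0.702% and negative for 0.566%. Its sign does not tell which tissue changed more. That positive share of 55.4% was 41.5% with quantile normalization. An unadjusted limma p under 0.05 was found for 5 of 9 members and for 3880 of the 24213 tested genes. The 5 were wx1, ss1 and ae1, larger in BETL, and bt1 and su2, larger in MATZ. For the 14 to 20 DAP change 0 of 9 passed, and 0.0372% of all genes were called (0.00826% positive and 0.0289% negative). These were 9 genes in all, and 3 with median-of-ratios scaling. The unadjusted limma p was under 0.05 for 1 of 9 members (bt1, 3.32 ± 0.97, adjusted p = 0.267) and for 2339 of the 24213 tested genes. For the 8 to 20 DAP change wx1 was the 1 member called, larger in BETL, where 2.33% of all genes were called (1.03% positive and 1.3% negative). For bt1 the 8 to 14 DAP change was larger in MATZ by 3.07 ± 0.97 without passing (adjusted p = 0.152).

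**Figure D4:**
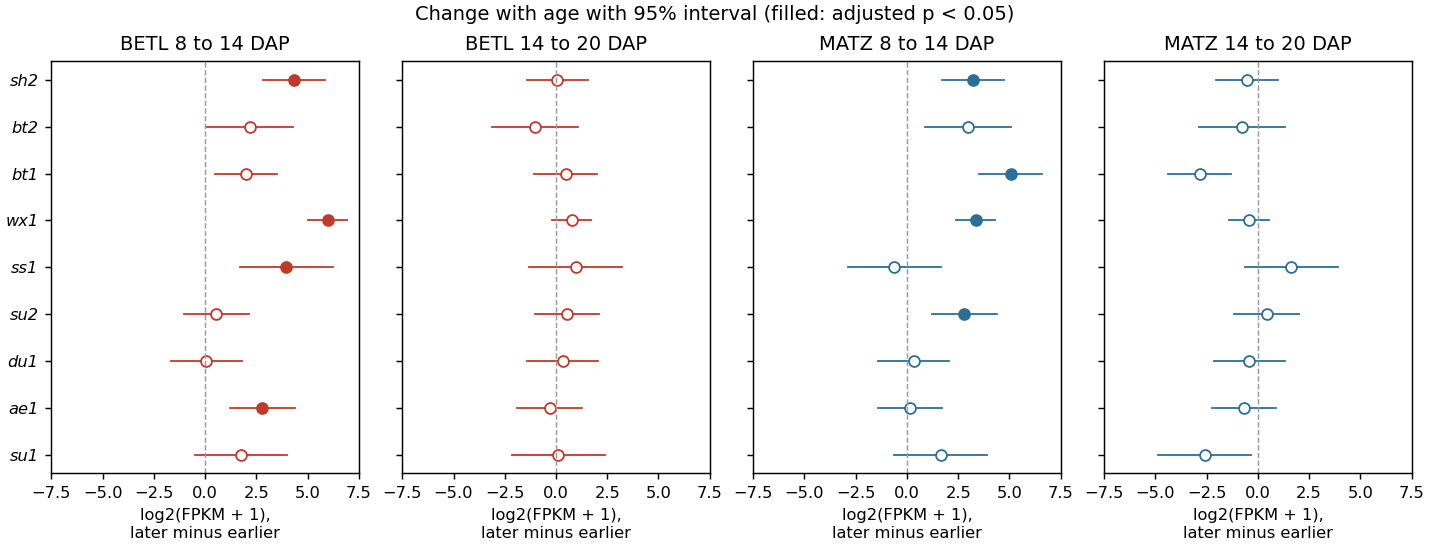
Change in log2(FPKM + 1) between ages (x axis, later minus earlier) for the 9 starch genes (y axis) in BETL and in MATZ, from 8 to 14 DAP and from 14 to 20 DAP, with the 95% interval of the limma fit as a bar. The first step is positive for all 9 genes in BETL and for 8 of 9 in MATZ, and the second step ranges from -1.01 (bt2) to 0.95 (ss1) in BETL and from -2.84 (bt1) and -2.59 (su1) to 1.62 (ss1) in MATZ.

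The order of the levels also changed with age and tissue. At 8 DAP ae1 had the highest mean in both tissues (7.73 ± 4.09 FPKM in BETL and 6.80 ± 2.40 in MATZ), though it overlapped the gene ranked next in each. In BETL at 14 DAP wx1 and ae1 overlapped at the top, followed by bt1, sh2 and ss1. In BETL at 20 DAP wx1 was above ae1, ae1 above bt1, and bt1 overlapped ss1, while du1 and bt2 overlapped at the bottom. In MATZ at 20 DAP wx1 was above all others, su2, ss1, bt2 and sh2 overlapped in a middle band, and ae1, bt1, du1 and su1 lay below it. In MATZ at 14 DAP wx1, bt1 and bt2 were the highest, and bt2 overlapped bt1 but not sh2. As shares of the summed 9 genes, wx1 made up 37.3% and 43.4% in BETL and 51.6% and 37.6% in MATZ at 20 DAP. The share of ae1 at that age was 19.6% and 14.9% in BETL and 6.49% and 3.08% in MATZ, and the share of bt2 was 1.77% and 0.787% in BETL and 8.34% and 12.6% in MATZ.

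Other genes of starch and sucrose metabolism, formed a list of 11 matched by symbol. From 8 to 14 DAP 1 of 11 rose in BETL (sbe1 under GRMZM2G088753), where 9.06% of all genes rose. In MATZ 2 of 11 rose over that step (sh1 and sus1), where 3.11% did. From 14 to 20 DAP 1 of 11 fell in MATZ (sh1), against 0.698% of all genes, and from 8 to 20 DAP 1 of 11 rose in MATZ (sus1), against 4.39%. Between tissues 1 of 11 was called higher in BETL, sus1 at 8 DAP, against 2.16% of all genes. Whether this list differed from the 9 was not tested. The sucrose synthase gene sus1 (GRMZM2G152908), whose enzyme feeds sucrose into metabolism, was at 27.1 and 23.8 FPKM in BETL at 8 DAP, at 61.6 and 44.9 FPKM at 14 DAP and at 17.3 and 11.8 FPKM at 20 DAP. In MATZ it was at 1.30 and 2.34 FPKM at 8 DAP, at 22.2 and 16.6 FPKM at 14 DAP and at 17.1 and 17.2 FPKM at 20 DAP. It was present in BETL at 8 DAP, when sh2, wx1 and ss1 were listed at 0, and was then 3.25 ± 0.45 higher there than in MATZ (adjusted p = 0.00246, from 0.00391 to 0.0166 over the omissions).

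The endosperm sucrose synthase gene sh1 (GRMZM2G089713) had its highest MATZ values at 14 DAP. The MATZ means of sh2, bt2, bt1, wx1, du1, ae1 and su1 were also highest at that age, and those of ss1 and su2 at 20 DAP. In MATZ sh1 was at 7.97 and 1.36 FPKM at 8 DAP, at 45.1 and 35.5 FPKM at 14 DAP and at 0 and 1.0 FPKM at 20 DAP. In BETL it was at 2.24 and 3.26, at 19.0 and 15.4, and at 4.40 and 6.003 FPKM at these ages. The MATZ fall from 14 to 20 DAP was -4.86 ± 0.76 (adjusted p = 0.0171, from 0.0091 to 0.0798), lost without either MATZ library of 14 DAP or MATZ 20 DAP replicate 1. The preceding MATZ rise, 3.15 ± 0.76, was borderline (adjusted p = 0.0422, from 0.0162 to 0.147) and passed in 4 of the 12 omissions.

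Of the branching enzyme genes outside the 9, sbe1 stood under 2 identifiers. GRMZM2G088753 rose in BETL from 8.37 and 3.48 FPKM at 8 DAP to 30.5 and 27.6 FPKM at 14 DAP (2.21 ± 0.50, adjusted p = 0.0214, from 0.0199 to 0.0916, lost without BETL 8 DAP replicate 2 or either BETL library of 14 DAP). In MATZ it was at 50.1 and 46.1 FPKM at 14 DAP, above both BETL libraries, and at 13.0 and 8.97 FPKM at 20 DAP, below the BETL values of 16.9 and 17.9 FPKM. Neither tissue difference passed (log2 -0.71 ± 0.50, adjusted p = 0.447, at 14 DAP and 0.64 ± 0.50, adjusted p = 0.504, at 20 DAP). The other identifier, GRMZM2G088737, was at 0 and 4.42 FPKM in BETL at 8 DAP and at 0 and 5.76 FPKM at 14 DAP. That difference was 0.16 ± 1.39, and no comparison of GRMZM2G088737 was called. The plastid phosphorylase gene pho1 (GRMZM2G074158) was at 7.60 and 29.6 FPKM in BETL at 14 DAP and at 16.7 and 24.7 FPKM at 20 DAP, and in MATZ at 10.8 and 0 FPKM and at 3.38 and 5.59 FPKM. The tissues overlapped at 14 DAP and did not at 20 DAP. No comparison of pho1 or of the gene listed as Agp2 was called.

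Genes for endosperm transcription factors were examined beside them, with 4 identifiers matched. The bZIP gene o2 (GRMZM2G015534), which acts on storage protein genes and, in maize, on some starch genes, was at 0 in all 4 libraries of 8 DAP. It was at 8.07 and 6.58 FPKM in BETL and 3.91 and 6.67 FPKM in MATZ at 14 DAP, and at 6.85 and 4.28 FPKM in BETL and 0 in both MATZ libraries at 20 DAP. It was therefore detected in both tissues at 14 DAP, and at 20 DAP in the BETL libraries and in neither MATZ library. The BETL rise to 14 DAP was 3.05 ± 0.63 (adjusted p = 0.0155, from 0.0143 to 0.0596, lost without BETL 8 DAP replicate 1 or BETL 14 DAP replicate 1). The 20 DAP tissue difference was 2.69 ± 0.63 (adjusted p = 0.0247, from 0.0179 to 0.0976, lost without any of the 4 libraries of that age).

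The DOF factor gene pbf1 stood under 2 identifiers. GRMZM2G146267 was at 1.12 and 1.38 FPKM in BETL at 8 DAP, at 10.7 and 15.5 FPKM at 14 DAP and at 20.8 and 15.1 FPKM at 20 DAP. Its rise from 8 to 20 DAP there was 3.06 ± 0.81 (adjusted p = 0.0387, from 0.00652 to 0.207), and it held in 2 of the 12 omissions. The other identifier, GRMZM2G146283, was at 4.10 and 0 FPKM in BETL at 8 DAP and at 9.35 and 10.6 FPKM at 20 DAP. Its 8 to 20 DAP difference there, 2.28 ± 0.97, was not called (limma adjusted p = 0.16). In MATZ at 20 DAP it was at 0 in both libraries, where GRMZM2G146267 was at 7.52 and 9.37 FPKM. The PLATZ factor gene fl3 (GRMZM2G006585) ran the other way in BETL, at 644 and 565 FPKM at 8 DAP, 145 and 228 FPKM at 14 DAP and 12.3 and 14.7 FPKM at 20 DAP. In MATZ fl3 was at 10.6 and 5.12 FPKM at 8 DAP, at 233 and 136 FPKM at 14 DAP and at 0 in both libraries of 20 DAP. The highest MATZ values of fl3 thus fell at 14 DAP, as did those of bt1, sh1 and the summed zeins. Most of the 9 starch genes also had their highest MATZ mean at that age.

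Across the 12 libraries the 9 genes did not vary as a single block. Over the 36 pairs Pearson's r on log2(FPKM + 1) was highest for sh2 with wx1 (0.95), ae1 with su1 (0.78) and sh2 with bt1 (0.77), and lowest for bt2 with du1 (-0.03) and bt2 with ae1 (0.04). The subunit partners sh2 and bt2 gave 0.72. These points share libraries, depth and age groups, so the values describe these 12 libraries and carry no test.

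Among 1173 named genes outside the 9 with a mean of at least 10 FPKM, the courses most like sh2 were those of glb3 (r = 0.98), mtl2 (0.96), conz1 (0.96), CBL2-1 (0.95) and GI (0.94). Closest to bt2 were PP2C19 (0.92), AUX15 (0.91), GRF5 (0.90), CA2P16 (0.89) and rop1 (0.89). Closest to bt1 were LAZ1-6 (0.94), leg1 (0.90), hag (0.89), TPS9 (0.89) and gz27 (0.88), the last a gamma zein gene. These 3 lists of 5 shared no gene. Drawn from 1173 candidates, lists this short cannot tell whether the courses of sh2, bt2 and bt1 differ.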

How the data were processed

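RNA-seq of 12 libraries was deposited by the authors as 1 table with an FPKM column for each library, per the file headers. The tools listed per the submitters' processing notes were Cufflinks, Bowtie2 and TopHat2. Versions, build, annotation and strand setting: not given in the sources used here. No rescaling was applied to the FPKM, and each column was mapped to its library by title. How reads shared by similar genes were split is not stated, so genes under 2 identifiers are uncertain.

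Values were analysed as log2(FPKM + 1), which understates changes of low genes. The 24213 genes at 1 FPKM or more in at least 2 libraries were fitted together with limma 3.58.1 in R 4.3.3 (6 group means, mean trend, 6 residual degrees of freedom), with Benjamini-Hochberg adjustment over all tested genes and calls at adjusted p under 0.05. With 2 libraries against 2, an exact permutation test of a single gene cannot reach that threshold, so none was run. The script was tested on simulated data. The 12 comparisons were the tissues at each age, 3 pairs of ages in each tissue, and the tissue differences in these changes. A positive value means higher in BETL, or at the later age.

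All 9 members are named, other starch genes when called or at a mean of 20 FPKM in any group, the regulators, and for sh2, bt2 and bt1 the 5 named genes outside the 9 with the highest Pearson's r. The members and lists were chosen with earlier results of these data known. Symbols came from a RefSeq gene table, which matched 18771 identifiers and 8 of the 9 members (not su1). Fragment numbers were bounded by FPKM times gene span times inferred depth, and cover counting error only. Tables and plots used Python 3.11.15, pandas 2.3.3, numpy 2.4.6 and matplotlib 3.10.9.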

Additional observations from a re-analysis of the deposited data

Results flagged for a closer look

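The change of wx1 from 8 to 20 DAP differed between the tissues, larger in BETL by 3.81 on the log2 scale (limma adjusted p = 0.0139), and was picked out because the interaction itself passed the test. In BETL it was at 0 in both libraries of 8 DAP and at 103 and 109.8 FPKM at 20 DAP, and in MATZ at 3.58 and 5.40 and then 48.5 and 33.5 FPKM.

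The change of sus1 from 8 to 20 DAP differed in the other direction, larger in MATZ (BETL minus MATZ -3.50, adjusted p = 0.0237, from 0.0122 to 0.0706 with any library left out). It was lost without BETL 8 DAP replicate 1, BETL 20 DAP replicate 2 or either MATZ library of 20 DAP.

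The change of fl3 from 8 to 14 DAP also differed between the tissues, negative in BETL and positive in MATZ (BETL minus MATZ -6.13, adjusted p = 0.00626, from 0.00308 to 0.0362 with any library left out).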

How the results depend on the processing

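The 22 calls on the 9 genes were recomputed under 9 other settings and with each library left out, and 0 changed direction. In 8 of the 22 the call held in all 12 omissions. The number of calls lost was 17 when the compared groups alone were fitted, which leaves fewer libraries for the spread, 8 with a pseudocount of 0.1, 4 with 5, 4 without a filter, 0 with a filter of 5 FPKM, 5 with median-of-ratios scaling, 6 with quantile normalization and 1 without the mean trend. Differences between same-numbered libraries were hardly correlated between groups (-0.0168 to 0.0164 over 15 pairs of groups). Counting noise at this low depth can hide a pairing, so that check cannot exclude one. A replicate block lost 3 calls. Members called between tissues at 8 DAP fell from 2 to 0 with a pseudocount of 5, to 1 without a filter, to 1 with the replicate block and to 0 with the compared groups alone. At 14 DAP they fell from 1 to 0 with a pseudocount of 0.1 and with the compared groups alone, and at 20 DAP from 2 to 1 and to 0. For BETL from 8 to 14 DAP 4 became 2 with quantile normalization and 0 with the compared groups alone, and from 8 to 20 DAP 5 became 3 with a pseudocount of 0.1, without a filter and with either rescaling. For MATZ 4 became 2 with a pseudocount of 0.1 and 0 with the compared groups alone from 8 to 14 DAP, and 3 became 0 with the compared groups alone from 8 to 20 DAP. The tissue difference in the 8 to 14 DAP change went from 0 to 2 with a pseudocount of 0.1. Smaller changes in these counts are not listed. Among the 24 uncalled values tried, some became called. Between tissues these were su2 at 8 DAP with quantile normalization, and wx1 at 20 DAP with a pseudocount of 5 or either rescaling. In MATZ they were bt2 from 8 to 14 DAP with a pseudocount of 5, and bt1 from 8 to 20 DAP with a pseudocount of 0.1. With single libraries left out, members called between tissues ranged from 1 to 2, 0 to 2 and 0 to 3 at 8, 14 and 20 DAP, in BETL from 2 to 4 (8 to 14 DAP), 0 to 0 (14 to 20 DAP) and 2 to 5 (8 to 20 DAP), in MATZ from 2 to 5, 0 to 0 and 1 to 3, and for the tissue differences in change from 0 to 1, 0 to 0 and 0 to 1. The cause was not tested, apart from the smaller fits. Low depth limits values near 0, both in the 8 DAP libraries and in the MATZ libraries of 14 and 20 DAP.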
